A study of Arabidopsis thaliana with 12 samples.

Results

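The salt response of germinating wild-type seed was read from the 4 samples of the Arabidopsis thaliana accession Col-0, out of 12 samples in the series. Seed of 2 kinds is compared. NaCl seed (2 samples) germinated on MS 1X medium with 100 mM NaCl added, and control seed (2 samples) germinated on the same medium without it. All were kept at 21 °C under 16 h of light and 8 h of dark, and polyadenylated RNA was sequenced. The members were chosen by their labels alone, as every Col-0 sample, and every value below is NaCl over or minus control. The other 8 samples are the same conditions in the mutant lines ago4-2 and ago4-3 (2 samples for each line and condition). They enter the shared estimate of spread and the closing comparison, and they bear on which genes were tested, since 420 genes of the Col-0 table were not listed for all 12 samples and were left out. The labels give neither the time from sowing to harvest, nor the hour of harvest, nor the share of seeds that had germinated, so an effect of salt and a difference in stage or in time of day cannot be told apart.

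A dry Arabidopsis seed holds an embryo packed with storage proteins and oil, wrapped in a thin living endosperm and a dead seed coat. Germination is governed by the balance of 2 hormones: abscisic acid holds the seed in its protected, desiccation-tolerant programme, while gibberellin promotes wall loosening, radicle emergence and the use of reserves. Salt limits water uptake and brings in sodium, and is known to raise abscisic acid signalling and to delay germination.

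Total counts over the analysed genes were 31001632 and 34167928 in NaCl seed, against 47517007 and 21741182 in control seed, and levels are given as CPM, the count scaled to the TMM-adjusted library size. Each statistic is a log2 fold change ± SE with an adjusted p from edgeR's quasi-likelihood test, over 17751 genes. The test reports no SE, so the SE was worked back as the size of the log2 fold change divided by the square root of the F statistic. The series' design text calls the samples of a group biological replicates without saying how they were separated. The p-values can reflect no more than how far samples of a group lay apart. That spread was estimated over all 12 samples, mutant lines included, with information shared across genes. Samples are numbered by their replicate number (NaCl sample 1, control sample 2). Of seed markers, the embryo regulator ABI3 stood at 98.1 and 93.2 CPM in NaCl seed, against 107 and 106 CPM in control seed, and the regulator ABI5 at 77.7 and 77.0 CPM in NaCl seed, against 73.7 and 71.6 CPM in control seed. For endosperm and seed coat, 6 of 10 markers were measured, with a summed level of 162 and 177 CPM in NaCl seed, against 197 and 206 CPM in control seed, of which 2 were called lower (MUM4 and AFP4). The 5 embryo and seed markers summed to 711 and 965 CPM in NaCl seed, against 281 and 306 CPM in control seed, mostly through the storage gene CRA1. Of root markers 2 of 7 were measured (SHR and SCR), and SCR was lower (−0.38 ± 0.10, adjusted p = 0.0193). The mature-root markers COBL9, EXPA7 and CASP1 were not among the analysed genes, nor was any of the 4 pollen and flower markers. In such whole-seed samples, fewer cells of a type and less RNA per cell cannot be told apart.

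NaCl seed differed from control seed in 3222 of 17751 genes, with 1904 higher (10.7% of genes tested) and 1318 lower (7.42%). Most of these changes were moderate. The shares of 10.7% and 7.42% are the background for each list count below. In all 1904 genes called higher and all 1318 called lower the groups did not overlap. Separate groups, where stated below, therefore add nothing to a call. The median log2 fold change was 0.601 among the genes called higher, −0.585 among those called lower and 0.01 over all genes. Changes of over 2-fold were seen for 396 genes called higher and 257 called lower, and changes of over 4-fold for 68 and 27. With each of the 4 samples left out in turn, 705 genes were higher and 406 lower every time. The total was 1618 without control sample 1, 1390 without control sample 2 and 2108 without NaCl sample 2, each fit then resting on 1 sample in 1 group. Calls were spread over the chromosomes, with 10.3% to 11.5% of the genes of each nuclear chromosome higher and 7.06% to 8.34% lower.

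**Figure D1:**
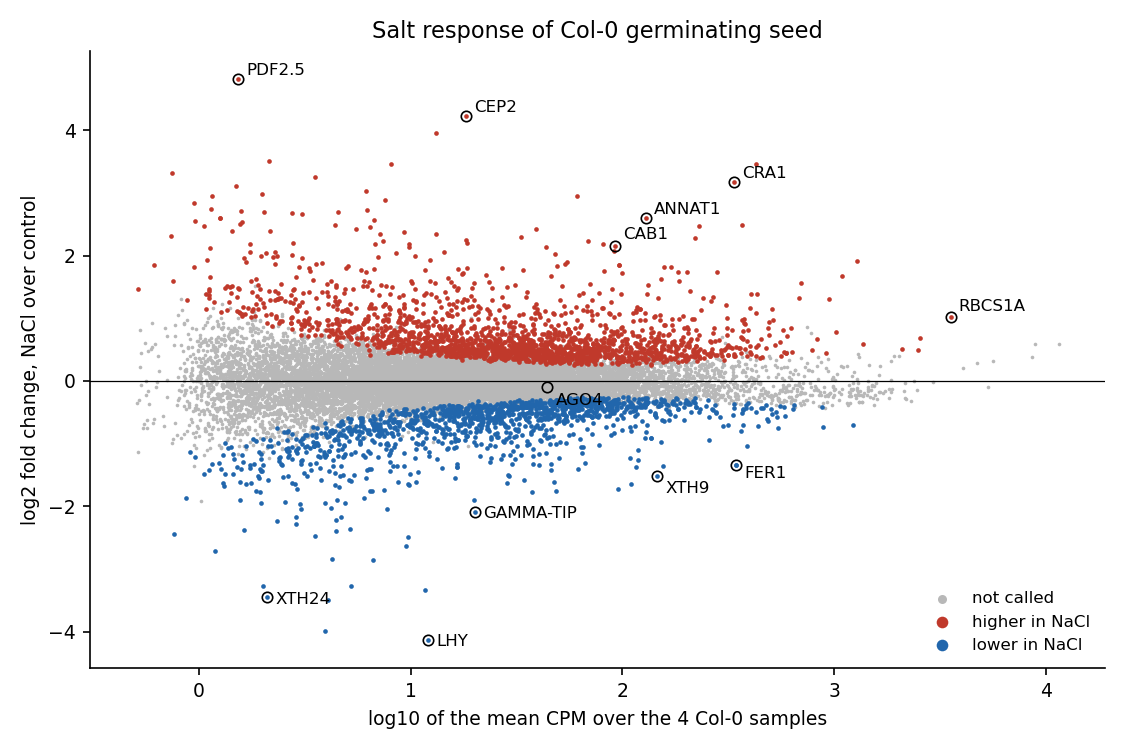
Each point is 1 gene, with the log10 of its mean CPM over the 4 Col-0 samples on the x axis and its log2 fold change, NaCl over control, on the y axis. Red points were called higher in NaCl seed, blue points lower and grey points neither. The 61 genes with a mean under 0.5 CPM, 2 of them called, are not drawn. Circles mark the labelled genes, from LHY at −4.13 to PDF2.5 at 4.82.

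Among the 12 genes that rose most, CEP2 (AT3G48340), a papain-type endopeptidase of the kind that digests cell contents and storage protein in dying endosperm, had 33.1 and 36.2 CPM in NaCl seed, against 1.90 and 1.78 CPM in control seed (log2 fold change 4.22 ± 0.23, adjusted p = 5.29e-08). Both control samples were close to the bottom of the measured range and both NaCl samples were far above them. The defensin-like gene AT4G22217 had 21.7 and 28.1 CPM in NaCl seed, against 1.77 and 1.32 CPM in control seed (log2 fold change 3.96 ± 0.18, adjusted p = 2.88e-08), and the defensin PDF2.5 had 3.12 and 2.85 CPM in NaCl seed, against 0.153 and 0 CPM in control seed, where 1 sample had no count. The uncharacterized gene AT1G68250 had 655 and 923 CPM in NaCl seed, against 69.7 and 74.0 CPM in control seed (log2 fold change 3.46 ± 0.24, adjusted p = 5.43e-07). Rises of the same order were measured for the extensin-like genes AT5G06630 (3.51 ± 0.45), EXT6 (3.25 ± 0.37) and EXT11 (3.11 ± 0.44), whose repetitive sequences can share reads, and for AT2G33830, annotated as dormancy- and auxin-associated (3.04 ± 0.24). The cupin gene AT2G28490, of the family of vicilin-like storage globulins, had 95.6 and 121 CPM in NaCl seed, against 12.4 and 15.8 CPM in control seed (log2 fold change 2.95 ± 0.15, adjusted p = 4.24e-08).

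LHY, described with the clock below, led the 12 genes that fell most. GulLO5, a gulonolactone oxidase homologue, had 0.520 and 0.403 CPM in NaCl seed, against 7.35 and 7.54 CPM in control seed (log2 fold change −4.00 ± 0.45, adjusted p = 2.68e-05), and the cysteine proteinase AT1G29090 had 0.693 and 0.634 CPM in NaCl seed, against 8.37 and 6.67 CPM in control seed. TCH3, a calmodulin-like protein known to be induced by touch, had 3.96 and 1.93 CPM in NaCl seed, against 16.4 and 16.5 CPM in control seed (log2 fold change −2.48 ± 0.27, adjusted p = 1.86e-05). The groups did not overlap in any of these genes, as their choice required. The extensin-like AT2G43150 fell by 2.63 ± 0.30 on the log2 scale, so that extensin-like genes stood among the largest changes in both directions. UPI, a serine protease inhibitor with 0.173 and 0.461 CPM in NaCl seed, against 2.55 and 1.57 CPM in control seed, was called (log2 fold change −2.71 ± 0.57, adjusted p = 0.00415). The call of UPI ended without control sample 1 or NaCl sample 1 (highest adjusted p = 0.0637).

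Among the genes of abscisic acid itself, changes went in both directions: 6 of 38 were higher and 7 lower, with a median log2 fold change of 0.02 that was close to the 0.01 of all genes. Of synthesis genes, ABA1 (AT5G67030), the zeaxanthin epoxidase of the pathway's plastid steps, had 36.5 and 37.7 CPM in NaCl seed, against 18.3 and 18.3 CPM in control seed (log2 fold change 1.02 ± 0.15, adjusted p = 3.32e-04), and both NaCl samples lay far above both control samples. CYP707A1, an 8'-hydroxylase that inactivates the hormone, had 9.15 and 10.11 CPM in NaCl seed, against 19.96 and 20.7 CPM in control seed (log2 fold change −1.08 ± 0.20, adjusted p = 0.00161), and CYP707A3 also fell (−0.75 ± 0.22). No other measured synthesis gene of the list was called, and no other measured 8'-hydroxylase gene. Of the receptors, PYL6 fell, with 9.88 and 9.02 CPM in NaCl seed, against 14.0 and 15.4 CPM in control seed (log2 fold change −0.63 ± 0.15, adjusted p = 0.0072), as did PYL4 (−0.41 ± 0.11) and PYR1 (−0.36 ± 0.11). Of the PP2C phosphatases of the list, HAI3 rose, with 15.0 and 18.3 CPM in NaCl seed, against 8.20 and 9.77 CPM in control seed (log2 fold change 0.90 ± 0.17, adjusted p = 0.00208). The phosphatases AHG1 (0.57 ± 0.14) and ABI1 (0.49 ± 0.13) rose as well, and PP2CA fell (−0.44 ± 0.13). The kinases SNRK2.2 (0.38 ± 0.10) and SNRK2.3 (0.35 ± 0.11) rose, and the transcription factor ABF3 fell (−0.72 ± 0.23), while ABI3 and ABI5 were not called (adjusted p = 0.248 and 0.613). The calls of CYP707A3 and SNRK2.2 ended without control sample 1, control sample 2 or NaCl sample 2 (highest adjusted p = 0.23 and 0.153). The call of PYL6 ended without control sample 2 or NaCl sample 2 (highest adjusted p = 0.0764). The calls of PYL4, PYR1 and SNRK2.3 ended without control sample 1, control sample 2 or NaCl sample 1 (highest adjusted p = 0.156, 0.238 and 0.265). The call of AHG1 ended without control sample 1 or NaCl sample 2 (highest adjusted p = 0.148). The call of ABI1 ended without control sample 1 or NaCl sample 1 (highest adjusted p = 0.157). The calls of PP2CA and ABF3 ended when any 1 of the 4 samples was left out, control samples 1 and 2 and NaCl samples 1 and 2 alike (highest adjusted p = 0.178 and 0.225). ABA1, HAI3 and CYP707A1 kept their call with each sample left out in turn. The count higher was 2 without control sample 1, and the count lower was 2 without that sample, 1 without control sample 2, 3 without NaCl sample 1 and 3 without NaCl sample 2.

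Genes of protective proteins that abscisic acid is known to induce were called higher more often than lower. LEA proteins and dehydrins are small hydrophilic proteins that accumulate in maturing seed and shield membranes and enzymes during drying. Of 19 measured, 12 were higher and 0 lower by edgeR, with a median log2 fold change of 0.90. At an unadjusted p under 0.05, 1 was lower, as was 1 by DESeq2. Of those that rose, 11 of the 12 were called with every sample left out in turn. The dehydrin AT5G66400 (RAB18) had 329 and 449 CPM in NaCl seed, against 65.0 and 74.9 CPM in control seed (log2 fold change 2.48 ± 0.27, adjusted p = 2.24e-05). EM1 had 218 and 244 CPM in NaCl seed, against 84.3 and 65.0 CPM in control seed (log2 fold change 1.62 ± 0.17, adjusted p = 1.61e-05), and its relative GEA6, known as EM6, had 61.0 and 83.3 CPM in NaCl seed, against 28.7 and 30.02 CPM in control seed (log2 fold change 1.30 ± 0.19, adjusted p = 3.07e-04). The NaCl samples were the 2 highest for each of these genes. LEA14 (1.83 ± 0.14), LTI30 (1.37 ± 0.20), LEA7 (1.09 ± 0.16), LEA4-5 (0.95 ± 0.14) and LEA18 (0.90 ± 0.17) rose too. The list's summed level was 3363 and 4245 CPM in NaCl seed, against 2263 and 2183 CPM in control seed. The acidic dehydrins COR47 (−0.13), ERD10 (−0.12) and ERD14 (0.00), which are well known from cold and drought, were not called.

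Osmotic and cold response genes gave 12 of 19 higher and 2 lower (median log2 fold change 0.78). LTI65, known as RD29B and a standard reporter of abscisic acid, had 118 and 132 CPM in NaCl seed, against 50.9 and 54.0 CPM in control seed (log2 fold change 1.25 ± 0.12, adjusted p = 1.01e-05), and LTI78, known as RD29A, had 39.2 and 45.3 CPM in NaCl seed, against 14.4 and 15.4 CPM in control seed (log2 fold change 1.504 ± 0.15, adjusted p = 8.29e-06). KIN1 had 11.4 and 15.3 CPM in NaCl seed, against 1.84 and 1.74 CPM in control seed (log2 fold change 2.89 ± 0.21, adjusted p = 8.26e-07). All 3 were higher in both NaCl samples than in either control sample. The membrane-binding annexin ANNAT1 had 209 and 234 CPM in NaCl seed, against 34.8 and 38.6 CPM in control seed (log2 fold change 2.598 ± 0.20, adjusted p = 1.17e-06), and TSPO (1.54 ± 0.12), KIN2 (1.18 ± 0.16) and the transcription factor DREB2A (0.89 ± 0.11) also rose. Proline, an osmolyte, is made by P5CS and broken down by proline dehydrogenase: the synthesis genes P5CS1 (log2 fold change 0.76 ± 0.14, adjusted p = 0.00195) and P5CS2 (log2 fold change 0.78 ± 0.12, adjusted p = 5.39e-04) rose, and the breakdown gene ERD5 fell, with 28.9 and 31.5 CPM in NaCl seed, against 55.5 and 66.4 CPM in control seed (log2 fold change −1.01 ± 0.12, adjusted p = 6.68e-05). The galactinol synthase GolS1, which starts raffinose synthesis, rose (0.97 ± 0.18). The other member that fell was RD22 (−0.74 ± 0.17). The call of RD22 ended without control sample 2 or NaCl sample 1 (highest adjusted p = 0.063). The count lower was then 1.

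The sequences before these genes are shown because 12 of 19 LEA genes were higher. In the 300 bases before the annotated gene start, the abscisic acid response element (ABRE), searched as ACGTGGC or ACGTGTC on both strands, was found for 12 of the 19 LEA genes and for 11 of the 12 that rose, against 8.43% of 17559 such windows over all analysed genes. It was in 7 of 19 windows of the osmotic and cold list and 4 of the 12 that rose. In the clock list it was in 11 of 24 windows and 6 of the 15 that rose. The clock genes LHY and CCA1, which fell, had 1 and 2 matches. The storage and oil body list had it in 5 of 15 windows and 4 of the 7 that rose. It was in 14.0% of windows of all genes called higher and 8.91% of those called lower. Matches on opposite strands can overlap on 1 ACGT core. The windows of EM1 (chr3:19214422-19214721, plus strand), GEA6 (chr2:16780369-16780668, minus strand) and LTI65 (chr5:21236721-21237020, plus strand) in TAIR10.1, read 5′ to 3′ toward the gene from the RefSeq genome, have the matches in capitals.
EM1: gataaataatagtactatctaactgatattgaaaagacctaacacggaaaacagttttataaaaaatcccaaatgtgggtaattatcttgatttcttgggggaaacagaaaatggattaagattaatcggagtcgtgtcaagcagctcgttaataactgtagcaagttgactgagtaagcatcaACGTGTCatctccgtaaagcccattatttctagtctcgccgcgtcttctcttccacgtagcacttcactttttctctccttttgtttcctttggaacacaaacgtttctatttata
GEA6: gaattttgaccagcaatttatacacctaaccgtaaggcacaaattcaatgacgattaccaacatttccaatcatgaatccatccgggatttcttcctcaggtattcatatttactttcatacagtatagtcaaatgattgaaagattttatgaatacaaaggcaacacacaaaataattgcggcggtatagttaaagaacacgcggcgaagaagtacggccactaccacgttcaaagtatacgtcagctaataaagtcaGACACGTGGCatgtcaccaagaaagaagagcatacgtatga
LTI65: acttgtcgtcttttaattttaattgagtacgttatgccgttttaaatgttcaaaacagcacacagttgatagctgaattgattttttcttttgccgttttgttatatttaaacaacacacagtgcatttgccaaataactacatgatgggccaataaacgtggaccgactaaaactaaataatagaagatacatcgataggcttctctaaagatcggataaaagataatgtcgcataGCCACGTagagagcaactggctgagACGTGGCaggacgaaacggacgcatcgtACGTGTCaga
EM1 has 1 match, GEA6 has 2 and LTI65 has 3, all in the part of the window nearer the gene. A match is a run of letters and no evidence of binding.

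Of 15 measured genes of stored proteins and oil bodies 7 were higher and 1 was lower (median log2 fold change 0.61). CRA1 (AT5G44120), a cruciferin and so one of the major storage globulins, had 489 and 725 CPM in NaCl seed, against 58.5 and 76.0 CPM in control seed (log2 fold change 3.18 ± 0.22, adjusted p = 6.01e-07), and the vicilin-like PAP85 had 52.1 and 79.7 CPM in NaCl seed, against 8.35 and 17.1 CPM in control seed (log2 fold change 2.42 ± 0.40, adjusted p = 7.52e-04). Of the oleosins, which coat oil droplets, 4 were higher: OLEO2 had 108 and 156 CPM in NaCl seed, against 26.5 and 32.0 CPM in control seed (log2 fold change 2.18 ± 0.15, adjusted p = 6.45e-07), AT3G01570 rose by 1.82 ± 0.16, OLEO1 by 1.07 ± 0.24 and OLEO3 by 0.62 ± 0.16, while OLEO4 was not called (log2 fold change 0.41 ± 0.45, adjusted p = 0.593). The 2S albumins, small storage proteins of the seed, gave no call. SESA3 had 10.7 and 13.7 CPM in NaCl seed, against 22.0 and 28.2 CPM in control seed (log2 fold change −1.03 ± 0.36, adjusted p = 0.0601), which lay the other way without passing the test, and SESA1 (−0.15), SESA2 (0.17) and SESA4 (−0.31) were not called. The cruciferin CRU2 was lower (log2 fold change −1.11 ± 0.33, adjusted p = 0.032), while CRU3 was not called (log2 fold change 0.56 ± 0.31, adjusted p = 0.245). The call of OLEO1 ended without control sample 1 or NaCl sample 2 (highest adjusted p = 0.0998). The call of OLEO3 ended without control sample 1, control sample 2 or NaCl sample 2 (highest adjusted p = 0.246). The call of CRU2 ended without control sample 2, NaCl sample 1 or NaCl sample 2 (highest adjusted p = 0.275). The summed level was 1043 and 1548 CPM in NaCl seed, against 308 and 397 CPM in control seed, so the NaCl samples also differed from each other, and without NaCl sample 2 the count higher was 4.

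Enzymes that break reserves down gave 6 of 16 higher and 1 lower. Beside CEP2, the vacuolar aspartic protease AT1G62290 had 73.6 and 95.4 CPM in NaCl seed, against 23.4 and 22.7 CPM in control seed (log2 fold change 1.87 ± 0.15, adjusted p = 1.42e-06). Its relative APA1 (0.57 ± 0.11) and the vacuolar processing enzyme BETA-VPE (0.59 ± 0.09), which matures and degrades seed globulins, rose too. The count lower, RD21B, was 0 without control sample 2, without NaCl sample 1 or without NaCl sample 2. Of 20 oil mobilisation genes 3 were higher (15.0%, against 10.7% over all genes) and 0 lower by edgeR, with a median of −0.01. At an unadjusted p under 0.05 these counts were 6 and 1, and by DESeq2 5 and 0. The count higher was 1 without control sample 1. The glyoxylate cycle enzyme ICL had 12980 and 14620 CPM in NaCl seed, against 9290 and 9129 CPM in control seed, with the NaCl samples above the control samples but the test not passed (log2 fold change 0.58 ± 0.20, adjusted p = 0.0601). The oil lipase SDP1 stood at 74.5 and 63.3 CPM in NaCl seed, against 70.9 and 74.2 CPM in control seed (−0.07).

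Gibberellin and germination-control genes showed 8 of 30 higher and 4 lower (median 0.13). SOM, a zinc-finger repressor of light-dependent germination, had 203 and 218 CPM in NaCl seed, against 85.2 and 82.8 CPM in control seed (log2 fold change 1.33 ± 0.10, adjusted p = 1.16e-06). Of synthesis genes, GA3OX2, which makes the active hormone, had 26.9 and 37.1 CPM in NaCl seed, against 54.2 and 56.5 CPM in control seed (log2 fold change −0.79 ± 0.13, adjusted p = 7.73e-04), whereas GA20OX1 (0.85 ± 0.22), GA20OX2 (0.78 ± 0.26) and GA20OX3 (0.81 ± 0.21), which act a step earlier, were higher. The receptor GID1A rose (0.44 ± 0.12) and the DELLA repressor GAI fell (−0.38 ± 0.11). Gibberellin-responsive GASA genes went in both directions, with GASA3 at 8.09 and 14.3 CPM in NaCl seed, against 2.69 and 3.06 CPM in control seed (log2 fold change 1.98 ± 0.21, adjusted p = 1.98e-05), GASA4 at 0.84 ± 0.15, and GASA6 at −0.85 ± 0.19. The calls of GA20OX1 and GA20OX3 ended without control sample 1, control sample 2 or NaCl sample 2 (highest adjusted p = 0.148 and 0.173). The call of GA20OX2 ended without control sample 1, NaCl sample 1 or NaCl sample 2 (highest adjusted p = 0.425). The calls of GID1A and GAI ended when any 1 of the 4 samples was left out, control samples 1 and 2 and NaCl samples 1 and 2 alike (highest adjusted p = 0.142 and 0.141). The call of GASA6 ended without control sample 2 or NaCl sample 1 (highest adjusted p = 0.111). SOM, GASA3, GASA4 and GA3OX2 kept their calls with each sample left out. The count higher was 3 without control sample 1, 4 without control sample 2, 5 without NaCl sample 1 and 3 without NaCl sample 2, and the count lower was 1 without control sample 2 and 2 without NaCl sample 1.

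**Figure D2:**
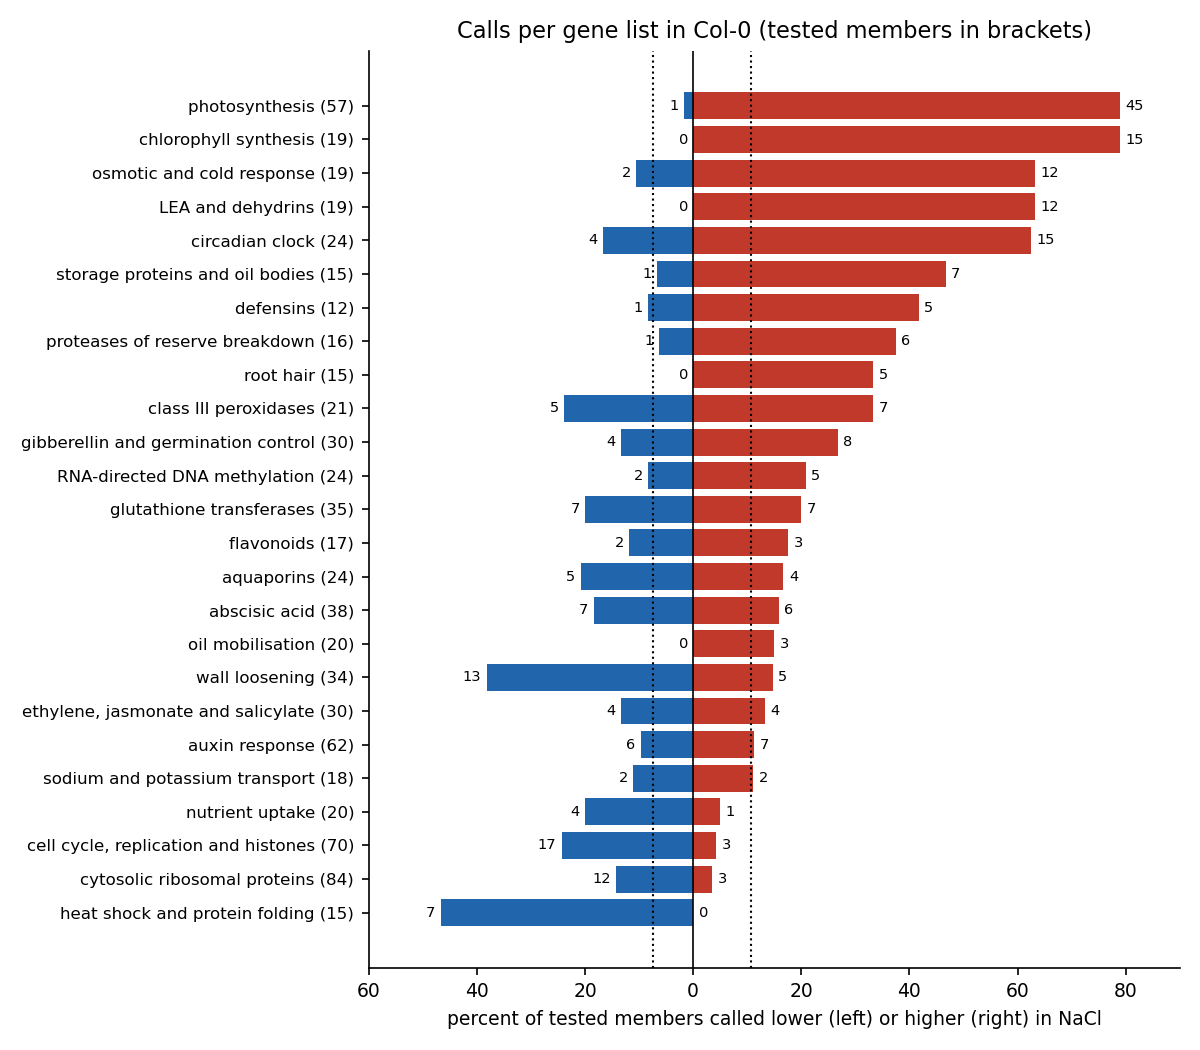
Each bar pair is 1 gene list, with the percent of its tested members called lower in NaCl seed to the left and higher to the right, the counts at the bar ends and the number tested in brackets. Dotted lines mark the shares over all genes, 10.7% higher and 7.42% lower. Photosynthesis (45 of 57), chlorophyll synthesis, the LEA, osmotic and clock lists reached farthest to the right, and heat shock and wall loosening farthest to the left.

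Of 34 measured wall-loosening genes 5 were higher and 13 lower (median −0.21), and no left-out sample moved either count by over 1.5 times. All 5 that rose were expansins of the alpha class, proteins that loosen cellulose networks without cutting them. EXPA10 had 550.0 and 556 CPM in NaCl seed, against 250.1 and 242 CPM in control seed (log2 fold change 1.17 ± 0.11, adjusted p = 4.03e-06), EXPA1 had 679 and 684 CPM in NaCl seed, against 349 and 346 CPM in control seed (log2 fold change 0.97 ± 0.11, adjusted p = 3.99e-05), and EXPA15 (1.18 ± 0.11), EXPA4 (1.195 ± 0.17) and EXP3 (0.66 ± 0.13) followed. The xyloglucan endotransglucosylases (XTH), which cut and rejoin the tethers between cellulose fibres, fell in every called case. XTH9 had 73.8 and 76.3 CPM in NaCl seed, against 214 and 218 CPM in control seed (log2 fold change −1.52 ± 0.11, adjusted p = 7.72e-07), and XTH16 had 64.4 and 65.5 CPM in NaCl seed, against 166 and 170.0 CPM in control seed (log2 fold change −1.37 ± 0.10, adjusted p = 9.4e-07). XTH15 (−1.76 ± 0.13), XTH18 (−2.37 ± 0.24), XTH24 (−3.45 ± 0.42) and the touch-induced TCH4 (−1.43 ± 0.17) fell too. The expansin-like EXLA1 (−1.96 ± 0.25) and EXLA2 (−1.95 ± 0.36) and the expansin EXPA2 (−1.01 ± 0.15) were lower, and reads may be shared within the pairs EXLA1 and EXLA2 and XTH17 and XTH18.

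Class III peroxidases, secreted enzymes that stiffen or open walls through hydrogen peroxide, moved in both directions: 7 of 21 were higher and 5 lower, and the median was −0.07. AT5G64100 had 1.79 and 2.42 CPM in NaCl seed, against 21.5 and 21.1 CPM in control seed (log2 fold change −3.34 ± 0.26, adjusted p = 1.02e-06), AT5G64120 had 0.924 and 1.04 CPM in NaCl seed, against 9.21 and 9.81 CPM in control seed (log2 fold change −3.27 ± 0.24, adjusted p = 8.26e-07), and AT5G39580 had 0.924 and 1.153 CPM in NaCl seed, against 7.43 and 7.58 CPM in control seed (log2 fold change −2.85 ± 0.33, adjusted p = 3.9e-05). In all 3 the control samples stood well above the NaCl samples. In the other direction, AT3G32980 had 7.57 and 8.15 CPM in NaCl seed, against 1.25 and 1.16 CPM in control seed (log2 fold change 2.69 ± 0.29, adjusted p = 1.73e-05), PRXR1 had 159.8 and 192 CPM in NaCl seed, against 98.6 and 98.5 CPM in control seed (log2 fold change 0.84 ± 0.16, adjusted p = 0.00167), and AT3G49960 rose by 2.98 ± 0.46. RHS19, a peroxidase known from root hairs, rose as well (2.70 ± 0.38). Among 15 root-hair genes 5 were higher and 0 lower by edgeR (median 0.47), with 1 lower at an unadjusted p under 0.05 and 0 by DESeq2. They were led by the wall protein PRP3 with 2.08 and 2.02 CPM in NaCl seed, against 0.269 and 0.248 CPM in control seed (log2 fold change 2.95 ± 0.37, adjusted p = 7.45e-05). GL2, which represses hair fate, was not called (0.30, adjusted p = 0.23). The root-hair count was 2 without control sample 1 and 3 without each of the other samples (control sample 2, NaCl sample 1 and NaCl sample 2).

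Of 24 aquaporins, the channels that pass water across membranes, 4 were higher and 5 lower (median −0.17). Those are 16.7% and 20.8%, against 10.7% and 7.42% over all genes. GAMMA-TIP, the vacuolar channel of growing cells also known as TIP1;1, had 6.76 and 8.62 CPM in NaCl seed, against 30.8 and 34.6 CPM in control seed (log2 fold change −2.09 ± 0.21, adjusted p = 1.23e-05). The seed-specific vacuolar channels TIP3;1, with 14.1 and 23.54 CPM in NaCl seed, against 7.29 and 7.58 CPM in control seed (log2 fold change 1.34 ± 0.22, adjusted p = 7.11e-04), and BETA-TIP (0.96 ± 0.22) went the other way. So did TIP4;1 (1.59 ± 0.22) and TIP2 (AT3G26520, log2 fold change 0.78 ± 0.13, adjusted p = 5.56e-04), so rises were not limited to the seed-specific channels. Of plasma-membrane channels, PIP2A fell (−0.54 ± 0.10). The call of BETA-TIP ended without control sample 1 or NaCl sample 2 (highest adjusted p = 0.114). The count lower was 3 without control sample 1 and 3 without NaCl sample 1.

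Of 18 measured genes of the sodium and potassium transport list 2 were higher and 2 lower, near the shares of all genes, with a median of 0.06. Beside sodium and potassium transporters the list holds proton pumps, calcium exchangers and the kinase SOS2. SOS1, the sodium exporter of the plasma membrane, had 10.8 and 7.20 CPM in NaCl seed, against 7.14 and 8.40 CPM in control seed (log2 fold change 0.22 ± 0.21, adjusted p = 0.54). The vacuolar sodium exchanger NHX1 (0.30, adjusted p = 0.274) and the kinase SOS2 (−0.17, adjusted p = 0.672) were not called either. NHX3 (0.66 ± 0.15) and CAX3 (0.62 ± 0.16) were higher, and the proton pump HA2 (−0.57 ± 0.12) and the calcium exchanger CAX1 (−0.57 ± 0.10) were lower. The calls of NHX3 and HA2 ended without control sample 2 (highest adjusted p = 0.108 and 0.0512). The call of CAX3 ended without control sample 1, control sample 2 or NaCl sample 1 (highest adjusted p = 0.102). The count higher was 1 without control sample 1, 0 without control sample 2 and 1 without NaCl sample 1, and the count lower was 1 without control sample 2. Nutrient uptake gave 1 of 20 higher and 4 lower. The iron-storage ferritin FER1 had 189 and 199 CPM in NaCl seed, against 481 and 506 CPM in control seed (log2 fold change −1.35 ± 0.11, adjusted p = 1.17e-06), FER3 fell as well (log2 fold change −0.80 ± 0.09, adjusted p = 1.98e-05), and the nitrate uptake partner WR3 had 4.62 and 4.78 CPM in NaCl seed, against 13.1 and 16.5 CPM in control seed (log2 fold change −1.65 ± 0.20, adjusted p = 5.69e-05). The nitrate reductase NIA1 was the member that rose (0.60 ± 0.10).

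**Figure D3:**
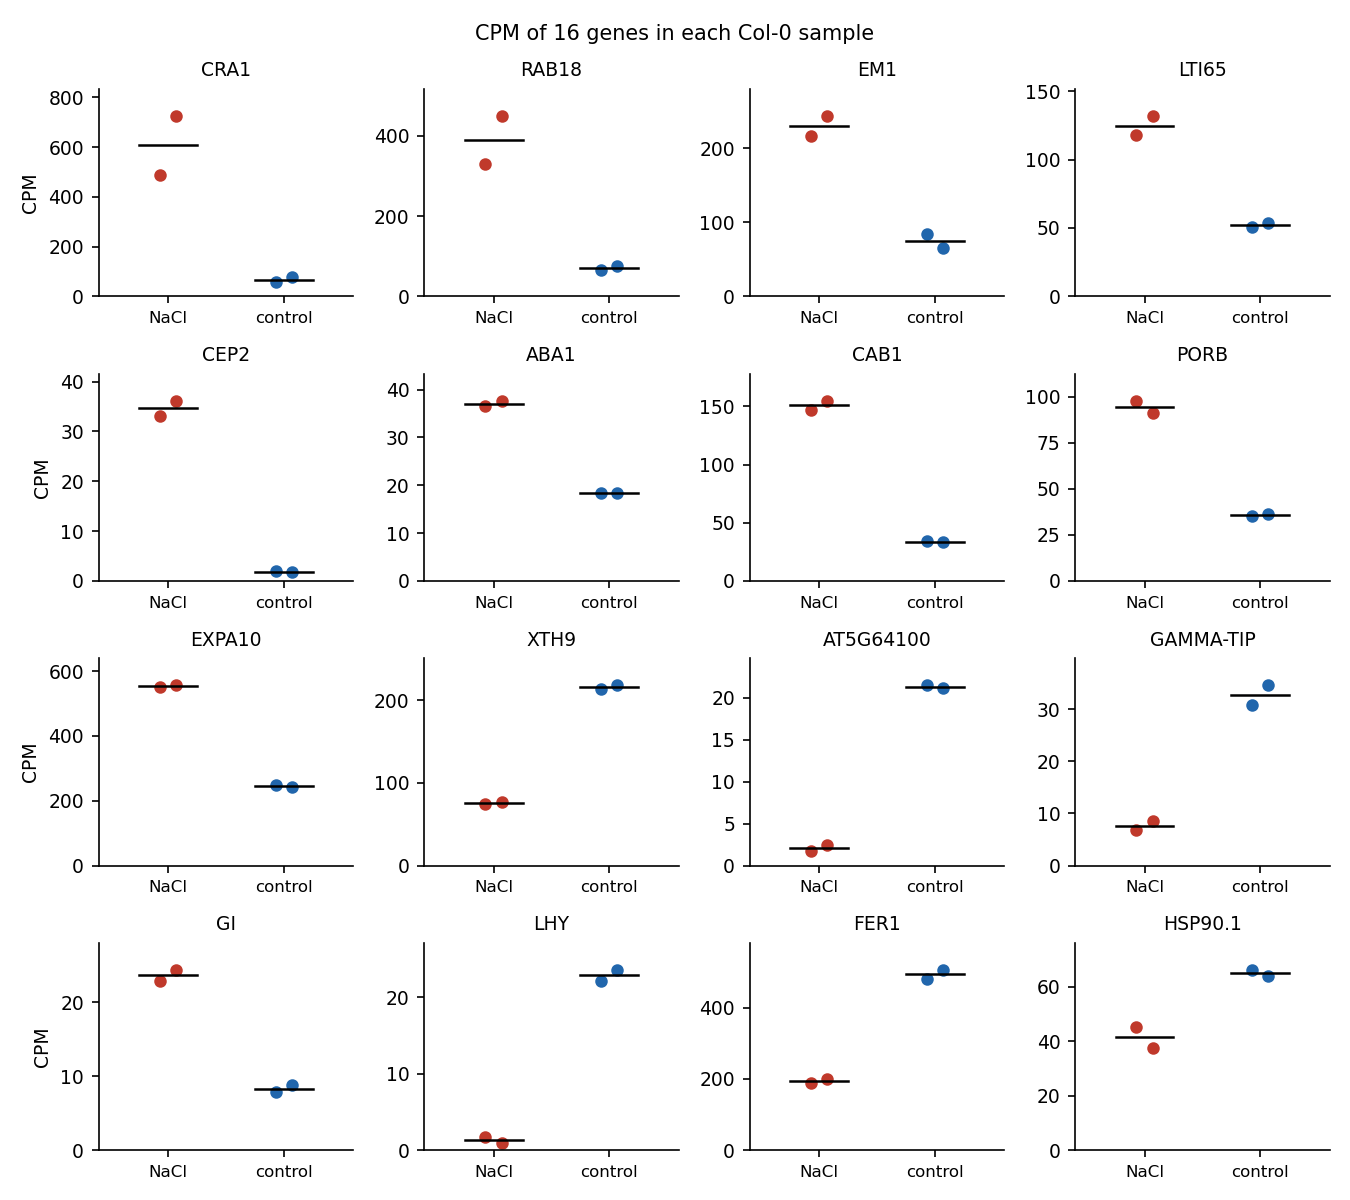
Each panel is 1 gene and each point 1 Col-0 sample, with CPM on a y axis that starts at 0, the 2 NaCl samples to the left, the 2 control samples to the right and a black line at the mean of each group. The 16 genes were picked from those called, and no called gene had overlapping groups, so the NaCl and control points do not overlap here. The NaCl points of CRA1 lie at 489 and 725 CPM.

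Among the circadian clock genes, the morning factors LHY and CCA1 were lower in NaCl seed, and evening genes such as GI and TOC1 were higher. The clock is a loop in which the morning MYB factors LHY and CCA1 repress evening genes, which in turn repress LHY and CCA1. LHY (AT1G01060) had 1.68 and 0.922 CPM in NaCl seed, against 22.1 and 23.56 CPM in control seed (log2 fold change −4.13 ± 0.22, adjusted p = 5.29e-08), so that both NaCl samples held only a small part of the control level. Its partner CCA1 had 1.097 and 0.576 CPM in NaCl seed, against 2.23 and 3.56 CPM in control seed (log2 fold change −1.76 ± 0.40, adjusted p = 0.00654), and RVE8, a related activator, had 1.68 and 1.09 CPM in NaCl seed, against 4.36 and 4.31 CPM in control seed (log2 fold change −1.64 ± 0.26, adjusted p = 4.98e-04). Of the 24 measured members 15 were higher and 4 lower (median log2 fold change 0.54), and the count lower was 2 without NaCl sample 2. GI, an evening protein that links the clock to flowering time, had 23.0 and 24.4 CPM in NaCl seed, against 7.83 and 8.82 CPM in control seed (log2 fold change 1.51 ± 0.13, adjusted p = 2.66e-06). The blue-light F-box protein FKF1 had 15.2 and 14.8 CPM in NaCl seed, against 5.76 and 6.67 CPM in control seed (log2 fold change 1.28 ± 0.14, adjusted p = 1.88e-05), and the pseudo-response regulator PRR5 had 11.7 and 12.4 CPM in NaCl seed, against 5.53 and 5.63 CPM in control seed (log2 fold change 1.11 ± 0.16, adjusted p = 2.40e-04). Control samples were the lower ones for each of these 3. TOC1 (0.67 ± 0.10), PRR3 (0.67 ± 0.12), PRR7 (1.147 ± 0.24), ELF4 (0.59 ± 0.12) and BOA (0.68 ± 0.13) rose too. So did 3 MYB genes related to LHY, namely LCL1, known as RVE4 (0.84 ± 0.14), EPR1 (0.49 ± 0.12) and RVE2 (0.44 ± 0.14). The call of CCA1 ended without control sample 2 or NaCl sample 2 (highest adjusted p = 0.0795). The call of PRR7 ended without NaCl sample 1 (highest adjusted p = 0.0507). The call of ELF4 ended without NaCl sample 2 (highest adjusted p = 0.0613). The call of EPR1 ended without control sample 1 or control sample 2 (highest adjusted p = 0.0777). The call of RVE2 ended when any 1 of the 4 samples was left out, control samples 1 and 2 and NaCl samples 1 and 2 alike (highest adjusted p = 0.247). CCA1 and RVE8 stood at under 5 CPM in all 4 samples. Whether NaCl and control seed were collected at the same hour is not stated in the labels, and its part in these values was not tested.

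The windows before clock genes are shown because LHY and CCA1 are known to bind the evening element, AAAATATCT, which was searched on both strands (AGATATTTT on the other). It was found in the 300 bases before 6 of the 24 clock genes, all 6 of them called higher, against 2.85% of windows over all genes, 4.81% of those of genes called higher and 2.67% of those called lower. No match lay in the window of GI, PRR7 or LHY, which says only that these letters are not in those bases. The element was also in 2 of 19 windows each of the LEA and osmotic lists and in 0 of 15 of the storage list. The windows of PRR5 (chr5:8358547-8358846, minus strand), FKF1 (chr1:25508339-25508638, plus strand) and TOC1 (chr5:24674663-24674962, plus strand) are given in TAIR10.1, read toward the gene, with matches in capitals.
PRR5: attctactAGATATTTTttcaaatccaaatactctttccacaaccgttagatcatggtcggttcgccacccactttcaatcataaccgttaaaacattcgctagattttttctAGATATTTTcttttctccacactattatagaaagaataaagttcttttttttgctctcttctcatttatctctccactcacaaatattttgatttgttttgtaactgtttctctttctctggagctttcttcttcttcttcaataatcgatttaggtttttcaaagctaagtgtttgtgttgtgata
FKF1: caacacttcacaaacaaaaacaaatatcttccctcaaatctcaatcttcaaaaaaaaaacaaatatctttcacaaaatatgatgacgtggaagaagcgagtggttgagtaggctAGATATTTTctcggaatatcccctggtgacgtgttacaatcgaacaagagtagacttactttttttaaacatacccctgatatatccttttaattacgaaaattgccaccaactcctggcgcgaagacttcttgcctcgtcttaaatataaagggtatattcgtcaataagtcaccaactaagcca
TOC1: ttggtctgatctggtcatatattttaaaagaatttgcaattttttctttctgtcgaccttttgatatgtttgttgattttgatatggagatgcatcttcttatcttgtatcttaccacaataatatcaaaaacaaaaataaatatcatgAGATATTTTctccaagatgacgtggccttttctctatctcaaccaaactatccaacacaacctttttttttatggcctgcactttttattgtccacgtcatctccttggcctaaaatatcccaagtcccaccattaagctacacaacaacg
PRR5 has 2 matches and FKF1 and TOC1 have 1 each, all on the strand opposite to the gene.

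**Figure D4:**
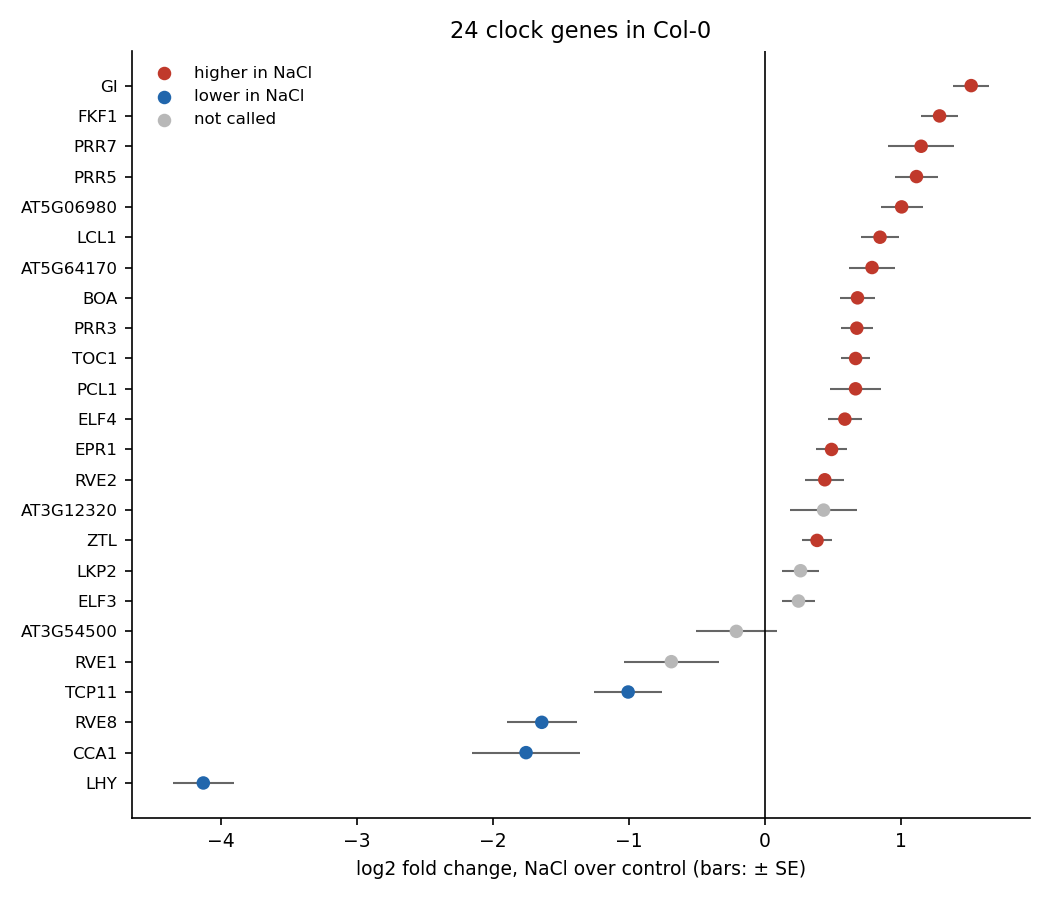
Each row is 1 of the 24 clock genes, with its log2 fold change (NaCl over control) as a point and its SE as a bar. Red rows were called higher, blue rows lower and grey rows neither. LHY stands apart at −4.13, 18 of the 24 points lie above 0, and GI is highest at 1.51.

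The photosynthesis genes that were called were higher with 1 exception: 45 of 57 nuclear genes were higher and 1 was lower, with a median log2 fold change of 1.02 (0.01 over all genes). These genes are known to switch on as the embryo greens. CAB1, a light-harvesting protein of photosystem II, had 147 and 155 CPM in NaCl seed, against 34.4 and 33.0 CPM in control seed (log2 fold change 2.16 ± 0.11, adjusted p = 5.29e-08), and its near-identical copy CAB3, with which it can share reads, had 15.4 and 16.9 CPM in NaCl seed, against 3.80 and 3.19 CPM in control seed. Of photosystem I, PSAD-1 had 69.9 and 72.2 CPM in NaCl seed, against 16.2 and 16.2 CPM in control seed (log2 fold change 2.13 ± 0.13, adjusted p = 2.94e-07), LHCA4 had 70.2 and 84.0 CPM in NaCl seed, against 19.6 and 18.1 CPM in control seed (log2 fold change 2.03 ± 0.12, adjusted p = 1.48e-07) and PSAG rose by 2.35 ± 0.19. Control samples were the lower ones in each. The Rubisco small-subunit gene RBCS1A had 4260 and 5253 CPM in NaCl seed, against 2502 and 2186 CPM in control seed (log2 fold change 1.02 ± 0.17, adjusted p = 7.46e-04). Of the carbon-fixation enzymes PRK (1.104 ± 0.09) and GAPA (0.99 ± 0.10) rose, and SBPASE was the member that fell (log2 fold change −0.43 ± 0.09, adjusted p = 0.00438). The call of SBPASE ended without control sample 2 (highest adjusted p = 0.0609). The summed level of the 57 was 8979 and 10390 CPM in NaCl seed, against 5659 and 5252 CPM in control seed. Genes of the oxygen-evolving complex were called too, such as PSBQA (0.50 ± 0.09).

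Chlorophyll synthesis had 15 of 19 higher (median 0.53) and 0 lower by edgeR, at an unadjusted p under 0.05 or by DESeq2. PORB, which makes chlorophyllide in light, had 97.8 and 90.8 CPM in NaCl seed, against 35.3 and 36.1 CPM in control seed (log2 fold change 1.40 ± 0.13, adjusted p = 5.17e-06), and the transcription factor GLK2, known to drive photosynthesis genes, had 32.0 and 33.9 CPM in NaCl seed, against 18.3 and 18.3 CPM in control seed (log2 fold change 0.85 ± 0.12, adjusted p = 1.96e-04). HEMA1, the first enzyme of the pathway, and GUN5, a subunit of magnesium chelatase, were not called (−0.05 and −0.13). The count was 7 without control sample 2. None of 82 plastid-encoded genes and none of 37 mitochondrial genes was called by edgeR or by DESeq2, and at an unadjusted p under 0.05 the counts were 0 plastid-encoded and 1 mitochondrial. Plastid genes summed to 1676 and 4613 CPM in NaCl seed, against 2694 and 1117 CPM in control seed, so that samples of the same medium differed by over 2-fold and the groups overlapped. Of stomatal markers, MUTE, which drives the step to the guard mother cell, had 3.47 and 3.75 CPM in NaCl seed, against 0.921 and 1.08 CPM in control seed (log2 fold change 1.87 ± 0.25, adjusted p = 1.29e-04), and EPF1 was higher as well (1.29 ± 0.31). The stomatal marker SPCH was not called, with 7.34 and 6.14 CPM in NaCl seed, against 5.76 and 7.08 CPM in control seed (log2 fold change 0.08 ± 0.20, adjusted p = 0.84). FAMA was not among the analysed genes. The epidermal genes PDF1 (−0.65 ± 0.13) and ATML1 (−0.46 ± 0.11) were lower, and the 6 measured shoot epidermis and stomatal markers summed to 437 and 499 CPM in NaCl seed, against 653 and 756 CPM in control seed. Their part in the photosynthesis values was not tested.

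Growth-related genes gave more calls lower than higher, mostly of small size. Of 70 cell cycle, replication and histone genes 17 were lower and 3 higher (median −0.14). The replication helicase subunit PRL, known as MCM7, had 44.2 and 38.2 CPM in NaCl seed, against 64.0 and 64.4 CPM in control seed (log2 fold change −0.64 ± 0.10, adjusted p = 3.91e-04), the sliding clamp PCNA1 had 47.2 and 54.4 CPM in NaCl seed, against 73.3 and 80.0 CPM in control seed (log2 fold change −0.59 ± 0.10, adjusted p = 8.62e-04), and all 6 MCM genes of the list were called lower. The histone variant HTA8 fell most (−0.93 ± 0.12). The mitotic kinases CDKB2;1 (0.51 ± 0.16) and CDKB2;2 (0.59 ± 0.16) and the cyclin CYCD1;1 (0.53 ± 0.13) made up the 3 that rose. The call of CDKB2;1 ended when any 1 of the 4 samples was left out, control samples 1 and 2 and NaCl samples 1 and 2 alike (highest adjusted p = 0.176). The calls of CDKB2;2 and CYCD1;1 ended without control sample 1, control sample 2 or NaCl sample 1 (highest adjusted p = 0.127 and 0.0969). The count lower was 9 without control sample 1 and 7 without control sample 2. Of 84 cytosolic ribosomal protein genes 12 were lower and 3 higher (median −0.22), and 72 of the 84 values lay below 0. The 3 that were higher, AT3G01170, AT5G15260 and AT3G14595, are annotated only by the ribosomal protein family they resemble. AT3G53890 had 351 and 414 CPM in NaCl seed, against 596 and 574 CPM in control seed (log2 fold change −0.62 ± 0.13, adjusted p = 0.00365). The count lower was 6 without control sample 1, 7 without control sample 2, 6 without NaCl sample 1 and 19 without NaCl sample 2, and the summed level was 38400 and 46390 CPM in NaCl seed, against 49470 and 48240 CPM in control seed, with both NaCl samples below both control samples and NaCl sample 1 the lowest.

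Of 15 heat shock and protein folding genes 7 were lower (median −0.77), and 0 were higher by edgeR, at an unadjusted p under 0.05 or by DESeq2. The chaperone HSP90.1 had 45.3 and 37.4 CPM in NaCl seed, against 66.1 and 63.9 CPM in control seed (log2 fold change −0.65 ± 0.14, adjusted p = 0.00367), and the small heat shock protein AT5G51440 had 21.6 and 25.4 CPM in NaCl seed, against 73.4 and 70.0 CPM in control seed (log2 fold change −1.61 ± 0.12, adjusted p = 9.4e-07). Both control samples were above both NaCl samples. HSP101 (−0.98 ± 0.21) and the heat factor HSFA2 (−1.146 ± 0.27) were lower, and the endoplasmic reticulum chaperones BIP1 (−0.12) and BIP2 (−0.03) were not called. The call of HSP101 ended without control sample 2 (highest adjusted p = 0.0595). The call of HSFA2 ended without control sample 1, control sample 2 or NaCl sample 2 (highest adjusted p = 0.0688). The count lower was 3 without control sample 2.

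Defence, detoxification and the other hormones gave mixed changes, to be read beside the 10.7% of all genes that were higher and the 7.42% that were lower. Of 12 defensins and defensin-like genes 5 were higher and 1 lower, with AT4G22214 at 9.73 and 12.4 CPM in NaCl seed, against 1.88 and 3.15 CPM in control seed (log2 fold change 2.18 ± 0.29, adjusted p = 1.19e-04) and PDF2.1 at 12.4 and 19.4 CPM in NaCl seed, against 6.03 and 7.78 CPM in control seed (log2 fold change 1.22 ± 0.23, adjusted p = 0.00186). The member that was lower, AT4G22230, was not called without control sample 1 or without NaCl sample 1. Of 35 glutathione transferases, which conjugate toxic compounds to glutathione, 7 were higher and 7 lower. GSTU14 had 15.6 and 18.0 CPM in NaCl seed, against 4.01 and 4.43 CPM in control seed (log2 fold change 2.00 ± 0.19, adjusted p = 6.45e-06), and ERD9 had 24.6 and 27.6 CPM in NaCl seed, against 64.8 and 66.8 CPM in control seed (log2 fold change −1.33 ± 0.10, adjusted p = 9.68e-07). Their count higher was 3 without control sample 1, without control sample 2 or without NaCl sample 2, and their count lower was 2 without control sample 2. Of 17 flavonoid genes 3 were higher, with PAL1, the entry enzyme of the phenylpropanoid pathway, at 8.09 and 10.03 CPM in NaCl seed, against 3.03 and 2.98 CPM in control seed (log2 fold change 1.59 ± 0.31, adjusted p = 0.00227) and the hydroxylase TT7 at 1.09 ± 0.15, and 2 were lower, or 1 without control sample 1 and 0 without control sample 2 or NaCl sample 1.

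Ethylene, jasmonate and salicylate genes gave 4 of 30 higher and 4 lower (13.3% each), against 10.7% and 7.42% over all genes. The ethylene-forming oxidase ACO1 had 31.7 and 36.7 CPM in NaCl seed, against 55.6 and 60.9 CPM in control seed (log2 fold change −0.77 ± 0.12, adjusted p = 4.55e-04). Each left-out sample gave 1 lower (control sample 1, control sample 2, NaCl sample 1 and NaCl sample 2), and the count higher was 2 without either control sample. Auxin genes gave 7 of 62 higher and 6 lower, near the shares of all genes. The SAUR gene AT3G12955 had 11.1 and 13.1 CPM in NaCl seed, against 4.36 and 4.14 CPM in control seed (log2 fold change 1.504 ± 0.16, adjusted p = 1.88e-05), and the repressor IAA16 had 21.7 and 25.2 CPM in NaCl seed, against 37.8 and 43.9 CPM in control seed (log2 fold change −0.80 ± 0.16, adjusted p = 0.00257). The auxin count higher was 4 without control sample 1, 3 without control sample 2 and 3 without NaCl sample 2, and the count lower was 3 without control sample 1.

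AGO4 (AT2G27040; TAIR10.1 chromosome 2, 11536502 to 11542391), the protein that guides DNA methylation by small RNAs and the gene the series is about, did not change detectably in Col-0. It had 46.9 and 38.9 CPM in NaCl seed, against 44.6 and 46.8 CPM in control seed (log2 fold change −0.09 ± 0.13, adjusted p = 0.687), and the groups overlapped. Across the RNA-directed DNA methylation list 5 of 24 genes were higher and 2 lower (median −0.02). The demethylases DML1, known as ROS1 (0.68 ± 0.19), and DME (0.43 ± 0.13) and the methyltransferase DRM2 (0.46 ± 0.13) were among those higher, and the maintenance methyltransferase CMT3 (−0.51 ± 0.12) was lower. The calls of DML1, DME and DRM2 ended without control sample 1, control sample 2 or NaCl sample 1 (highest adjusted p = 0.19, 0.291 and 0.177). The call of CMT3 ended without control sample 1 or NaCl sample 2 (highest adjusted p = 0.089). None of the 5 that were higher was called without control sample 1, without control sample 2 or without NaCl sample 1. Of the 2 that were lower, 0 remained without control sample 1 or without NaCl sample 2, and 1 without control sample 2.

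The response of Col-0 was then set against that of each mutant line, with the difference itself tested (Col-0 minus mutant). AGO4 itself stood in ago4-2 at 38.9 and 35.4 CPM in NaCl seed, against 40.4 and 49.1 CPM in control seed, and in ago4-3 at 0.729 and 0.549 CPM in NaCl seed, against 1.35 and 1.154 CPM in control seed. Its level was thus far below that of Col-0 in ago4-3, while over its 4 samples the range in ago4-2 overlapped that of Col-0, so that it cannot check that label. Against ago4-2, 786 genes (4.43% of genes tested) had a different response, 460 with the Col-0 value above and 326 with it below that of ago4-2. Of the Col-0 calls, 319 of those higher and 63 of those lower were among them, or 11.9% of the 3222. The count was 298 without control sample 1 and 254 without control sample 2. The 2 control samples of ago4-2 stood apart from each other, with 2.04% and 0.202% of counts on organelle genes and a log2 SD of 0.264 between them, against 0.122 to 0.193 in the other 5 groups. Without ago4-2 control sample 1 the count was 1129, 670 of them among the 786, and without ago4-2 control sample 2 it was 699, 543 of them among the 786. It was 319 without ago4-2 NaCl sample 1 and 290 without ago4-2 NaCl sample 2.

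Photosynthesis held 48 of these genes among its 57 members, with a median log2 fold change of 1.02 in Col-0 and −0.33 in ago4-2, and 35 to 47 differed with 1 sample of ago4-2 left out. CAB1 changed by 2.16 in Col-0 and 0.20 in ago4-2 (difference 1.96, adjusted p = 1.27e-05), and PSAD-1 by 2.13 and −0.49 (difference 2.62, adjusted p = 4.86e-06). Chlorophyll synthesis gave 12 of 19, among them PORB (difference 1.23, adjusted p = 0.00164), or 5 without control sample 1, 4 without control sample 2, 7 without NaCl sample 2, 4 without ago4-2 NaCl sample 1 and 6 without ago4-2 NaCl sample 2. The clock gene GI rose by 1.51 in Col-0 and changed by −1.67 in ago4-2 (difference 3.19, adjusted p = 2.93e-06), while LHY fell in both lines (−4.13 and −3.42) with no difference called. In the expansins EXPA10 (difference 1.29, adjusted p = 2.10e-04) and EXPA1 (difference 1.32, adjusted p = 3.02e-04) the Col-0 value was above as well. Of 19 LEA genes 5 differed, all with the Col-0 value below, with list medians of 0.90 in Col-0 and 1.49 in ago4-2, and LTI65 changed by 1.25 and 2.48 (difference −1.23, adjusted p = 0.00116). By edgeR the LEA count was 2 without control sample 1, 0 without control sample 2, 3 without NaCl sample 2, 3 without ago4-2 control sample 2, 1 without ago4-2 NaCl sample 1 and 0 without ago4-2 NaCl sample 2. COR47, ERD10 and ERD14 of the same list had the Col-0 value above that of ago4-2 (differences 0.61, 0.37 and 0.54) with no difference called. The labels give the mutant lines by name only, with no statement on how each was crossed into Col-0.

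Against ago4-3, 4 genes (0.0225% of genes tested) had a different response by edgeR. AT5G09570, a Cox19-like protein, fell in Col-0 with 6.33 and 7.35 CPM in NaCl seed, against 15.3 and 13.7 CPM in control seed (log2 fold change −1.08 ± 0.18, adjusted p = 9.03e-04), while its log2 fold change in ago4-3 was −4.65 (difference 3.56, adjusted p = 5.16e-04). M17, a LEA gene, changed by −0.16 in Col-0 and 2.78 in ago4-3 (difference −2.94, adjusted p = 0.0104), ILA by −0.09 and 1.24 (difference −1.33, adjusted p = 0.0104), and NUDT21, a nudix hydrolase, by 0.78 and −0.73 (difference 1.51, adjusted p = 0.0395). AT5G09570 was the gene still called without each of the 4 Col-0 samples and without each of the 4 ago4-3 samples. The count was 1 without control sample 1, 1 without control sample 2, 12 without NaCl sample 2, 19 without ago4-3 control sample 1 and 1 without ago4-3 NaCl sample 1. In ago4-3 the median response was 0.47 for photosynthesis and 1.598 for LEA genes.

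**Figure D5:**
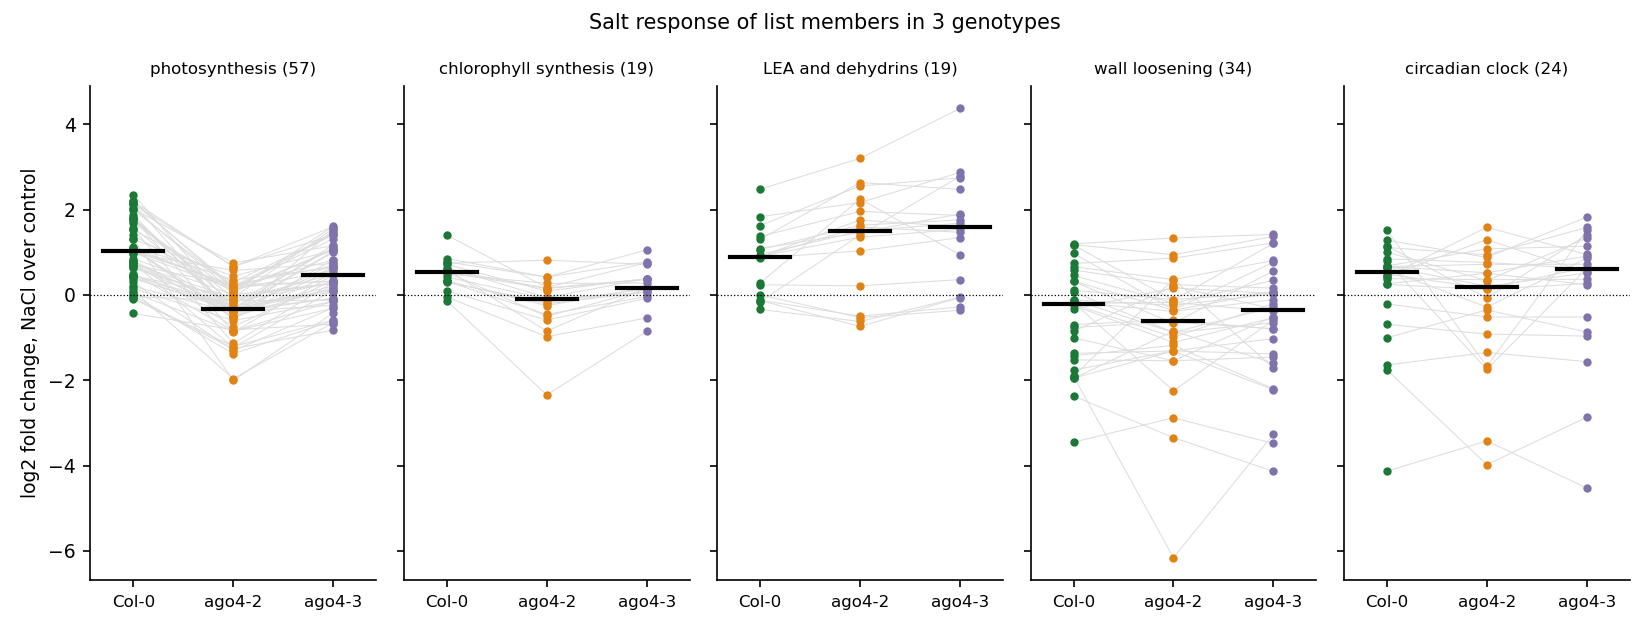
Each panel is 1 gene list, each point the log2 fold change (NaCl over control) of 1 member in Col-0, ago4-2 or ago4-3, grey lines join a gene and black bars mark the medians. In the photosynthesis panel the Col-0 median is 1.02, against −0.33 in ago4-2 and 0.47 in ago4-3, and in the LEA panel it is 0.90, against 1.49 and 1.598.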

How the data were processed

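Polyadenylated RNA of germinating seed was sequenced in 12 samples, 4 of them Col-0. The authors deposited raw counts per gene in 9 tables of paired comparisons, per the file headers. The submitters' processing notes name SAMtools, Picard, DESeq, edgeR and the genome build TAIR10 without versions, and the aligner and the counting settings, strand included, are not given in the sources used here. Overlapping and antisense genes may therefore share reads. The deposited fold changes and p-values were not used, nor were 36 further library columns of normalized values. The tables agreed in every value they share, and the 17751 genes listed for all 12 samples were analysed, so genes absent from a group's tables are missing. Among counts of 1 to 20, 74.8% to 81.5% were even in the Col-0 samples, as when both reads of a pair are counted.

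One model was fitted with edgeR 4.0.16 in R 4.3.3 (TMM scaling, quasi-likelihood test) to all 12 samples as 6 groups, which share 1 estimate of the spread. The contrasts were Col-0 NaCl minus Col-0 control, and that difference minus the same one in ago4-2 or ago4-3. Calls are at a Benjamini-Hochberg adjusted p under 0.05. The fits were tested on simulated data. Alternatives were other scalings, DESeq2 1.42.0, only the Col-0 samples, a filter of 5 CPM, the replicate block, each Col-0 sample left out (for the comparisons with a mutant line also each of its samples, chosen after seeing the data), halved counts, a test against a 1.5-fold change and no organelle genes.

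The samples, lists and tests were chosen with earlier results of these data known. The rule for named genes took AGO4, the 12 with the largest change in each direction (normalized counts averaging 50 or more where the gene is higher, 4 counts or more where it is lower, groups apart), up to 6 members of each list by adjusted p, and up to 2 called members that went against most of the list. It gave 188 genes with those that differed from ago4-3, and 58 further list members are named for their role, chosen after their values were seen. The text gives part of the genes of the rule. Promoter windows are the 300 bases before the annotated gene start in the RefSeq genome TAIR10.1, which held 17559 of the analysed genes. Plots were drawn with matplotlib 3.10.9.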

Additional observations from a re-analysis of the deposited data

Results flagged for a closer look

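A test of the difference between 2 responses, the log2 fold change in Col-0 minus that in a mutant line, singled out the results of this section. It found 786 genes against ago4-2 and 4 against ago4-3. The share over all genes was 4.43% against ago4-2. By list, the members that differed from ago4-2 were 5 of 19 for LEA and dehydrins and 6 of 19 for osmotic and cold response. They were 7 of 38 for abscisic acid, 48 of 57 for photosynthesis, 12 of 19 for chlorophyll synthesis and 7 of 34 for wall loosening. Lists with fewer than 5 such members are not given here, which favours long lists. Leaving out a sample moved some of these counts by over 1.5 times: abscisic acid gave 4 without Col-0 control sample 1, 3 without Col-0 control sample 2 and 3 without ago4-2 NaCl sample 2, wall loosening 4 without Col-0 control sample 2 or ago4-2 NaCl sample 2, chlorophyll synthesis 4 without Col-0 control sample 2 or ago4-2 NaCl sample 1, and LEA genes 0 without Col-0 control sample 2 or ago4-2 NaCl sample 2 by edgeR. Among the photosynthesis and chlorophyll genes named, the Col-0 value was above that of ago4-2 for CAB1 (1.96), CAB3 (1.53), PSAD-1 (2.62), LHCA4 (1.96), PSAG (2.67), PRK (0.92), GAPA (0.85), PSBQA (1.34), PORB (1.23), HEMA1 (0.93) and GUN5 (2.21). Among the storage, LEA, abscisic acid and osmotic genes named, the Col-0 value was above that of ago4-2 for PYL6 (1.22), PYL4 (0.71) and ABI1 (0.76). The Col-0 value of these storage, LEA, abscisic acid and osmotic genes was below that of ago4-2 for HAI3 (−1.25), AHG1 (−1.33), EM1 (−0.93), GEA6 (−1.34), LTI65 (−1.23), LTI78 (−1.62), TSPO (−1.19), DREB2A (−0.66), ERD5 (−1.03), OLEO2 (−0.82) and M17 (−1.57). Among the wall, transport, clock, hormone and other genes named, the Col-0 value was above that of ago4-2 for AT4G22217 (1.19), GA3OX2 (1.23), GASA6 (1.61), EXPA10 (1.29), EXPA1 (1.32), AT3G32980 (1.62), PIP2A (0.57), NIA1 (0.66), GI (3.19), ELF4 (0.87), PDF2.1 (1.23), ACO1 (1.54) and AT5G09570 (4.59). The Col-0 value of these wall, transport, clock, hormone and other genes was below that of ago4-2 for BETA-VPE (−0.58), BETA-TIP (−1.62), CAX3 (−0.97) and RVE2 (−0.86). Against ago4-3 the differences were 3.56 for AT5G09570, −2.94 for M17, −1.33 for ILA and 1.51 for NUDT21. No explanation of these differences was tested.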

How the results depend on the processing

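Of the 3222 calls in Col-0, 0 became a call in the other direction under any of the 14 alternatives tried. Genes that lost their call were not counted by sign. The groups of called genes did not overlap, so leaving out a sample could hardly turn a call. The total stayed within 1.5 times under RLE factors (3193), upper-quartile scaling (3360), DESeq2 (3442), only the 4 Col-0 samples (3580, or 3761 with all genes of their table), a filter of 5 CPM (3120), halved counts (3450) and no organelle genes (3409). Upper-quartile scaling gave 1751 higher and 1609 lower (52.1% higher, against 59.1%). Against a 1.5-fold change, 451 genes were called, 291 higher and 160 lower, with 86 differing from ago4-2 and 2 from ago4-3, and fewer calls follow from how that test is built. With 1 Col-0 sample left out the total was 1390 to 2441, with 868 to 1600 higher and 522 to 896 lower, 254 to 616 genes differed from ago4-2 and 1 to 12 from ago4-3. With 1 sample of the mutant line left out instead, chosen after seeing the data, 290 to 1129 genes differed from ago4-2 and 1 to 19 from ago4-3. Those fits take the lone sample of a group to vary as other groups do. The count against ago4-3, 4 genes, was 54 by DESeq2, 12 with the filter and 21 without organelle genes, and the cause was not tested.

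Deviations of same-numbered NaCl and control samples of Col-0 correlated at −0.08 over 14858 genes, so no shared deviation was seen. A single correlation cannot tell whether samples were paired, and the mutant lines were not checked. With the replicate block 2881 genes were called, 1719 higher and 1162 lower, with 596 differing from ago4-2 and 3 from ago4-3. Of list counts, ribosomal genes called lower were 21 under upper-quartile scaling and 24 by DESeq2, against 12, the 5 CPM filter left 2 of 7 rising peroxidases, 1 of 5 root hair genes, 4 of 7 rising and 3 of 6 falling auxin genes and 2 of 4 falling clock genes, and plastid-encoded genes called higher were 4 or 5 with only the Col-0 samples, against 0. Against a 1.5-fold change the counts higher were 26 for photosynthesis, 6 for LEA, 7 for osmotic, 3 for clock and 1 for chlorophyll genes. Of 246 named genes, 113 kept their side of the threshold under each of the 14 alternatives that tested them. The 5 CPM filter and the fit without organelle genes did not test all of them. Of the 206 named genes that were called, none changed sign in an alternative that tested it. With 2 samples a group, 21741182 counts in the smallest sample limit which low genes can be called.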
